A study of Mus musculus with 20 samples.

Results

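GW3965 is a synthetic, non-steroidal agonist of the liver X receptors (LXR), and its effect was measured by RNA sequencing in cultured mouse articular chondrocytes, the cells that make and maintain joint cartilage. The comparison is of 5 samples kept with 2 µM GW3965 for 48 hours and 5 samples kept with the solvent DMSO for the same time, called Vehicle here, which are 10 of the 20 samples of the series. The other samples received 20 µM 25-hydroxycholesterol (25HC) or its 3-sulfate (25HC3S). The cells came from mice aged 6 weeks. Strain, sex and genotype are not given in the labels. Nor do the labels say whether the 5 samples of a group were separate animals or cultures. The p-values rest on a spread between samples that is pooled over all groups of the series and may be partly technical. Expression is given as FPKM, the fragments counted on a gene per kilobase of its length and scaled to the sequencing depth of the sample.

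LXRα, encoded by Nr1h3, and LXRβ, encoded by Nr1h2, are nuclear receptors that bind oxidised forms of cholesterol and then switch on genes that carry cholesterol out of the cell and genes that make fatty acids. A separate system, the SREBP transcription factors, turns on cholesterol synthesis and uptake when sterol in the membrane of the endoplasmic reticulum runs low, and Insig proteins hold SREBP back when sterol is plentiful. The gene of SREBP1c, Srebf1, is itself a classical LXR target, and through it LXR agonists are known to raise fatty acid synthesis in liver.

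The samples held 14653777 to 19365220 fragments in genes, as recovered from the steps of the FPKM values, and 12752 of the 54532 genes in the table were expressed at 1 FPKM or more in at least 5 samples and were tested. Vehicle 2, 3 and 4 stood apart from all other Vehicle and GW3965 samples. They had 915, 237 and 316 genes with exactly 1 fragment, against 1886 to 2057 in the other 7, and 0.369%, 4.07% and 3.60% of their fragments lay in mitochondrial genes, against 1.13% to 1.37%. Results are therefore given from a fit of all 20 samples and, for most, also from a fit of 16, without these 3 and without the 1 sample of 25HC3S that is of the same kind. In the second, Vehicle rests on 2 samples, Vehicle 1 and 5. Each fit uses 1 spread for all groups, but Vehicle varied more. The squared difference between 2 samples of a group was averaged over genes and divided by that of counting alone. It was 3.51 to 172 in Vehicle and 2.62 to 6.09 in GW3965. Standard errors and p-values against Vehicle with 20 samples are therefore likely to be too small. Differences are on the log2(FPKM + 1) scale, GW3965 minus Vehicle, with the standard error, and genes with an adjusted p under 0.05 (limma, Benjamini-Hochberg over all genes tested) are referred to as called.

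The cultures expressed chondrocyte genes. Col2a1, the main collagen of cartilage, had 2085, 3501, 1059, 1090 and 2053 FPKM in Vehicle 1 to 5 and 3223, 3159, 2857, 2927 and 2477 in GW3965 1 to 5. Comp, a cartilage matrix protein, had 748 FPKM ± 374 (SD, n = 5) in Vehicle and 1072 ± 46.2 in GW3965. The list of 17 cartilage matrix genes that Comp led summed to 1454 to 1553 FPKM in Vehicle 1 and 5. It summed to 674.8 to 1503 in Vehicle 2, 3 and 4 and 1425 to 1602 in GW3965. Sox9, the transcription factor of chondrocyte identity, had 21.2 ± 2.41 and 21.9 ± 1.16. The cultures also held macrophage RNA. The summed level of 20 macrophage markers, led by the lysozyme gene Lyz2, was 549.5 to 1188 FPKM in Vehicle, 998.6 to 1188 in Vehicle 1 and 5, and 1035 to 1206 in GW3965. Other lists were high too. The 11 osteoblast and osteocyte markers, led by the collagen gene Col1a1, summed to 2329 to 5487 FPKM in Vehicle and 2689 to 3252 in GW3965. The 10 smooth muscle and contractile genes, led by the actin gene Acta2, summed to 448.5 to 613.9 and 647.8 to 855. Which cells expressed them was not tested. Markers of erythroid cells and neutrophils summed to at most 1.18 FPKM in Vehicle and 0.602 in GW3965, and none of these or of the lymphocyte and mast cell markers passed the filter on low values. In bulk RNA, fewer cells of a type and less RNA per cell cannot be told apart.

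Across all genes tested, GW3965 raised 445 and lowered 379 in the 20-sample fit, 3.49% and 2.97% of them. In the 16-sample fit it raised 508 and lowered 483, 3.98% and 3.79%. Counts of list members below are to be set beside these shares. Every GW3965 sample lay above every Vehicle sample for 3.79% of genes tested and under every one for 3.29%. With only the 10 Vehicle and GW3965 samples fitted, 84 genes were called higher and 68 lower. Called in both fits in the same direction were 246 higher genes and 231 lower genes, and 0 genes were called in opposite directions. More rises than falls were large. At least 2-fold on the log scale were 48 of the rises and 11 of the falls with 20 samples, and 23 and 9 with 16. At least 1.5-fold were 172 and 123 with 20 samples, and a near equal 84 and 80 with 16. The median difference of all genes was 0.02 with 20 samples and 0.01 with 16. All 347 genes called with 20 samples and not with 16 had the same sign in both, with a median size of 0.43 in the former and 0.17 in the latter. The 477 genes called in both had a median size of 0.54 and 0.40.

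**Figure D1:**
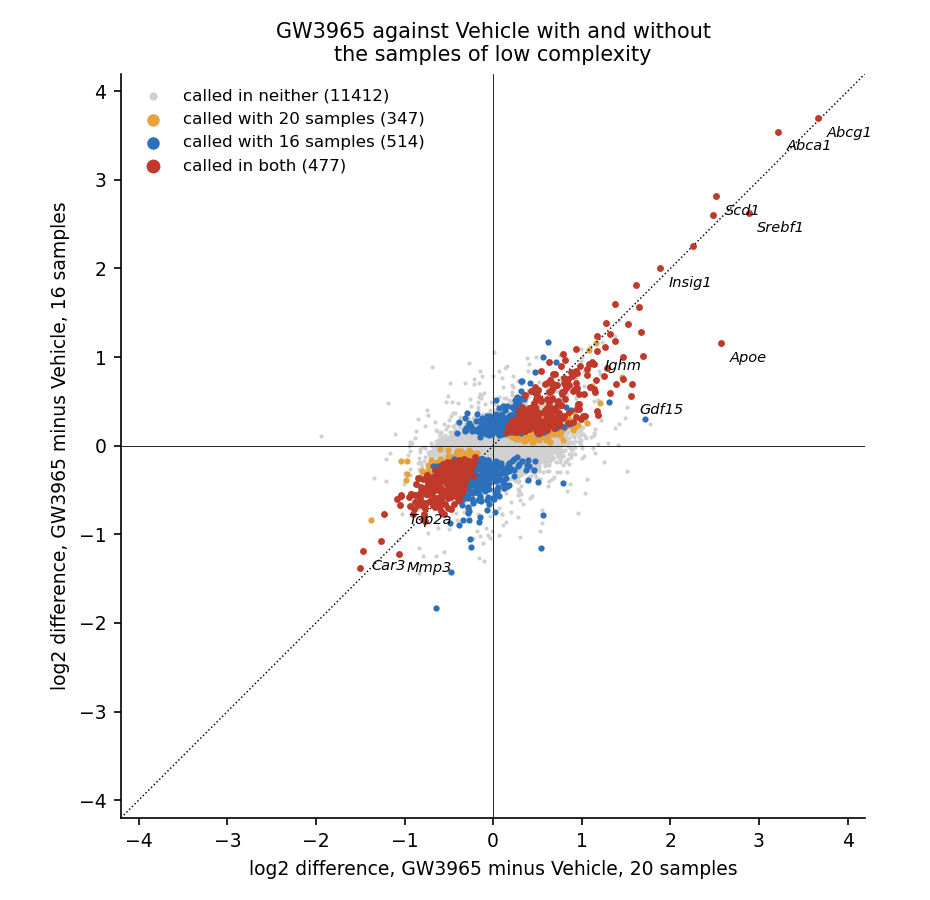
Each point is 1 of the 12752 genes tested, with its log2 difference of GW3965 and Vehicle in the fit of 20 samples (x axis) and of 16 samples (y axis), coloured by the fit in which it was called; the dotted line marks equal values. The 477 genes called in both lie in the upper right and lower left and 0 genes were called in opposite directions.

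The largest rises were in the genes that export cholesterol. Abcg1, a transporter that moves cholesterol to high-density lipoprotein (chromosome 17, 31057698 to 31115777), had 1.83, 1.36, 1.94, 2.48 and 1.79 FPKM in Vehicle and 34.7, 36.6, 37.3, 33.2 and 35.3 in GW3965. Abca1, the transporter that loads cholesterol onto apolipoprotein A-I (chromosome 4, 53030787 to 53159895), had 8.53, 11.3, 13.8, 14.0 and 8.60 FPKM in Vehicle and 108, 113, 110, 113 and 110 in GW3965. The groups lay far apart for both, and the 5 GW3965 samples lay close together. The means differed 18.8-fold for Abcg1 and 9.86-fold for Abca1, or 19.6-fold and 12.9-fold against Vehicle 1 and 5 alone. The log2 difference of Abcg1 was 3.67 ± 0.12 with 20 samples (adjusted p = 1.6e-13) and 3.70 ± 0.08 with 16 (adjusted p = 3.1e-14). For Abca1 it was 3.22 ± 0.13 (adjusted p = 3.1e-12) and 3.55 ± 0.06 (adjusted p = 3.0e-15). Arl4c, a small GTPase linked to cholesterol export, rose by less, from 7.70 FPKM ± 0.898 to 12.9 ± 0.349, a difference of 0.68 ± 0.07 and 0.70 ± 0.06. All 3 tested members of this list of 6 rose in both fits.

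Of the 5 tested LXR targets that act in lipoproteins, 3 rose in both fits. Apoe, the apolipoprotein that takes up exported cholesterol, had 43.7, 40.9, 2.94, 3.61 and 48.3 FPKM in Vehicle and 104, 111, 111, 99.5 and 94.5 in GW3965. Every GW3965 sample was above every Vehicle sample, but Vehicle 3 and 4 were far under the other 3. Lyz2, the most abundant macrophage marker, was low in the same samples, at 121 and 126 FPKM against 401 to 516 in the other Vehicle samples and 482 to 531 in GW3965, and its part in the result for Apoe was not tested. The log2 difference of Apoe was 2.57 ± 0.60 with 20 samples and 1.16 ± 0.08 with 16 (adjusted p = 0.015 and 1.4e-07). Apod, another lipid-carrying apolipoprotein, rose by 1.32 ± 0.14 and 1.26 ± 0.15. Pltp, the phospholipid transfer protein, rose by 0.99 ± 0.26 and 0.30 ± 0.07. Lpl, lipoprotein lipase, had 35.2, 30.4, 97.0, 98.2 and 46.1 FPKM in Vehicle and 59.96 to 74.9 in GW3965, so the groups overlapped through Vehicle 3 and 4. It was called with 16 samples, at 0.73 ± 0.11, and not with 20, at 0.31 ± 0.26.

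Among 9 tested LXR targets that are regulators or remodel phospholipids, 4 rose in both fits. Srebf1, the gene of SREBP1 (chromosome 11, 60199089 to 60222581), had 25.1, 24.4, 15.0, 16.4 and 24.7 FPKM in Vehicle and 169, 166, 159, 157 and 143 in GW3965, a difference of 2.88 ± 0.12 with 20 samples and 2.62 ± 0.05 with 16. Lpcat3, which places polyunsaturated fatty acids into phospholipids, rose by 1.64 ± 0.10 and 1.57 ± 0.06. Mylip, a ubiquitin ligase and classical LXR target, had 9.53 to 11.7 FPKM in Vehicle and 26.7 to 28.2 in GW3965, a difference of 1.28 ± 0.06 and 1.39 ± 0.05. Rnf145, a ubiquitin ligase of the sterol-sensing machinery, rose by 0.72 ± 0.05 and 0.68 ± 0.05. The receptors themselves moved little. Nr1h3 was 0.44 ± 0.13 higher with 20 samples (adjusted p = 0.044) and 0.10 ± 0.07 with 16 (adjusted p = 0.52), and Nr1h2 was 0.40 ± 0.14 higher (adjusted p = 0.087) and 0.03 ± 0.05 (adjusted p = 0.84). Both receptors were low in Vehicle 3 and 4: Nr1h2 had 10.1 and 9.88 FPKM there, against 16.5 to 20.8 in the other 8 samples.

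**Figure D2:**
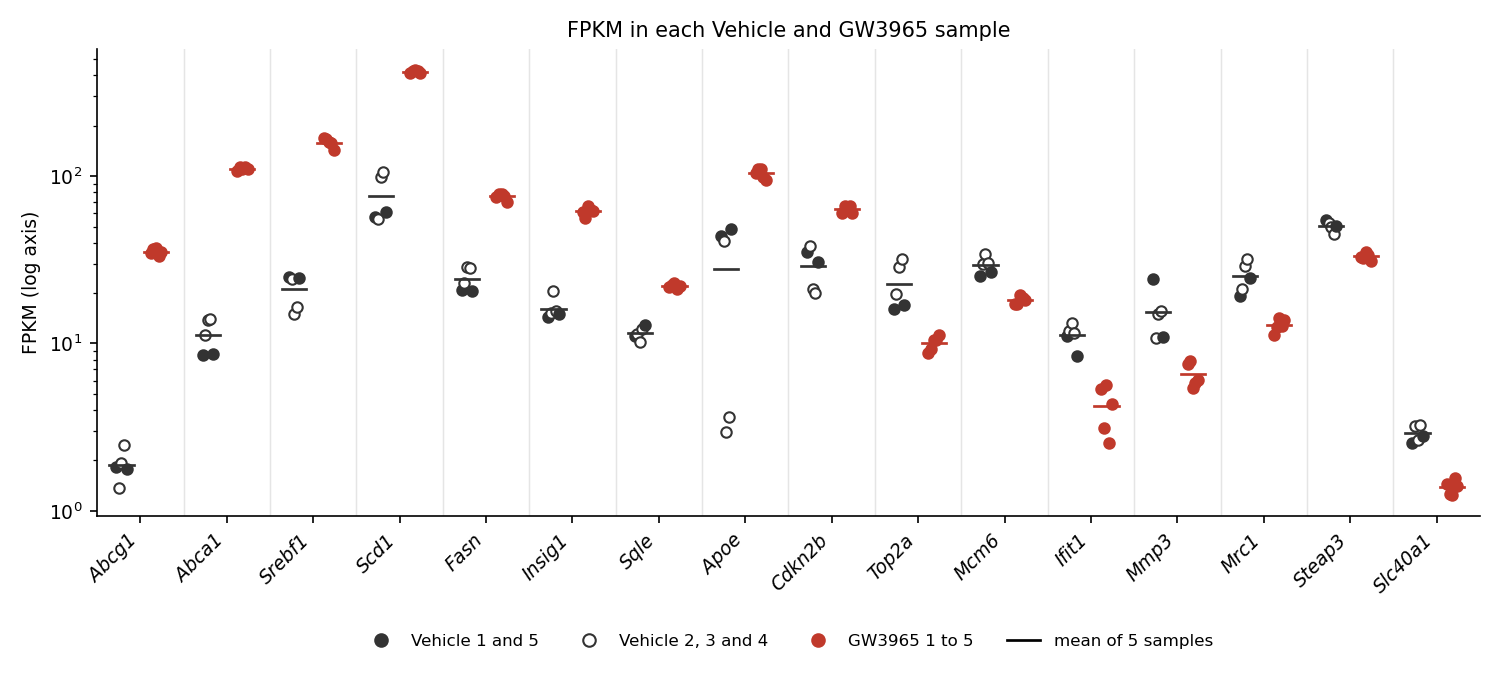
FPKM on a log axis of 16 genes in each Vehicle sample (dark; open symbols are Vehicle 2, 3 and 4) and each GW3965 sample (red), with bars at the mean of 5 samples. GW3965 samples lie above all Vehicle samples from Abcg1 to Cdkn2b and under all of them from Top2a to Slc40a1, and Vehicle 3 and 4 stand apart for Apoe.

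The genes of cholesterol synthesis rose together. Of the 8 tested enzymes of the mevalonate arm, which builds the isoprenoid precursors, 7 rose with 20 samples and 8 with 16, and all 11 enzymes from squalene to cholesterol rose in both fits. The list medians were 0.80 and 0.78 for the first arm and 0.85 and 0.89 for the second, beside 0.02 and 0.01 for all genes. For all 11 of the second arm, every GW3965 sample was above every one of the other 15 samples of the series, which held for 1.64% of all genes tested. Sqle, squalene epoxidase, had 11.1, 11.4, 10.2, 12.3 and 12.9 FPKM in Vehicle and 21.8, 22.3, 23.02, 21.2 and 22.0 in GW3965, a difference of 0.88 ± 0.07 and 0.83 ± 0.07. The 2 groups did not overlap.

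Hmgcs1, an early enzyme of the mevalonate arm, rose by 0.68 ± 0.10 and 0.81 ± 0.08. Lss, which closes the sterol ring, rose by 0.98 ± 0.07 and 0.89 ± 0.07, and Cyp51, which demethylates lanosterol, by 0.93 ± 0.08 and 1.09 ± 0.07. Nsdhl, a later demethylation enzyme, rose by 1.26 ± 0.17 and 1.11 ± 0.08, and Sc5d, a sterol desaturase, by 1.05 ± 0.11 and 0.86 ± 0.08. Mvd and Pmvk, in the mevalonate arm, had differences of 1.69 ± 0.31 and 1.57 ± 0.36 with 20 samples and of 1.01 ± 0.12 and 0.70 ± 0.10 with 16. Both were close to absent in Vehicle 3, at 0.468 and 0.234 FPKM, against 5.59 and 4.74 in Vehicle 1. Idi1, an isomerase, is the 1 enzyme of the 2 arms not called with 20 samples, at 0.41 ± 0.14 (adjusted p = 0.071), and rose with 16, at 0.70 ± 0.14 (adjusted p = 0.0054).

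Control and uptake genes of the same system were raised as well, 6 of 13 with 20 samples and 8 with 16. Insig1, the sterol sensor that retains SREBP in the endoplasmic reticulum (chromosome 5, 28071363 to 28078662), had 14.3, 15.1, 20.5, 15.6 and 14.9 FPKM in Vehicle and 61.2, 56.4, 66.1, 63.2 and 61.7 in GW3965, a difference of 1.89 ± 0.11 and 2.00 ± 0.10. Srebf2, the gene of the SREBP that drives cholesterol synthesis, rose from 21.3 ± 1.16 to 34.2 ± 0.770, Scarb1, a lipoprotein receptor, from 6.31 ± 1.19 to 9.89 ± 0.521, and Npc2, which carries cholesterol out of lysosomes, from 49.3 ± 14.9 to 72.7 ± 1.81. These are FPKM, and the log2 differences were 0.66 ± 0.06 and 0.64 ± 0.05 for Srebf2, 0.59 ± 0.11 and 0.37 ± 0.06 for Scarb1 and 0.61 ± 0.15 and 0.18 ± 0.03 for Npc2. Insig2, the second Insig gene, was called with 16 samples only, at 0.29 ± 0.05, and had 0.25 ± 0.08 with 20 (adjusted p = 0.074).

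Promoters of these genes were searched for letters known from the regulators, in windows of 250 bases before to 50 after the start from RefSeq on build GRCm38.p6, 1 per gene, which covered 9141 of the genes tested. The sterol response element was searched as TCACNCCAC on both strands. It was found in 97 of these 9141 promoters (1.06%) and in 1 of 14 cholesterol synthesis genes with a window, Hmgcs1. The CCAAT letters, bound by NF-Y, a partner of SREBP, were in 12 of 14, against 38.7% of all promoters. A window holding 2 AGGTCA half-sites 4 bases apart, with at most 2 of the 12 letters different, as LXR with its partner RXR binds, was found in 2.02% of all promoters and in 0 of 9 LXR targets that rose and had a window, and sites farther from the start were not searched. A match is a description of the letters only. Shown here on the strand of the gene, with the match in capitals (ATTGG is CCAAT on the other strand), are the sterol element of Hmgcs1 at chr13:119690188-119690247 (plus strand), a CCAAT match of Lss at chr10:76531515-76531574 (plus strand) and one of Nsdhl at chrX:72918384-72918443 (plus strand), as examples of the genes that rose together.
Hmgcs1: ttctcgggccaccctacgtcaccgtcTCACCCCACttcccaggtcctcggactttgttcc
Lss: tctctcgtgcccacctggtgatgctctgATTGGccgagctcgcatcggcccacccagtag
Nsdhl: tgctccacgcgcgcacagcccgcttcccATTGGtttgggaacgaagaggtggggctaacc

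Genes that make and modify fatty acids rose in part. Of 8 tested synthesis genes, 5 rose with 20 samples and 8 with 16, and of 13 desaturases and elongases 7 rose in both fits. Scd1 and Scd2, the desaturases that make oleate, gave the largest gains in mean FPKM among the genes called with 20 samples. Scd1 (chromosome 19, 44394451 to 44407709) had 57.1, 55.3, 99.1, 106 and 60.9 FPKM in Vehicle and 412, 423, 429, 426 and 417 in GW3965, and Scd2 had 88.0 to 112 in Vehicle and 527 to 565 in GW3965. The differences were 2.52 ± 0.17 and 2.81 ± 0.06 for Scd1 and 2.48 ± 0.07 and 2.60 ± 0.06 for Scd2. The 2 genes are close copies, so the counting could have split or shared their fragments. Fads2 and Fads1, the desaturases of polyunsaturated fatty acids, rose by 2.25 ± 0.12 and 1.17 ± 0.14 with 20 samples and by 2.26 ± 0.12 and 1.24 ± 0.05 with 16, and Fads3, their neighbour, by 0.40 ± 0.07 and 0.24 ± 0.05. Elovl5, an elongase of the same route, rose by 0.64 ± 0.10 and 0.75 ± 0.07.

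Fasn, fatty acid synthase, had 21, 23.1, 28.7, 28.4 and 20.5 FPKM in Vehicle and 75.2, 78.6, 78.3, 76.6 and 70.1 in GW3965, a difference of 1.61 ± 0.09 and 1.82 ± 0.05. Mid1ip1, which helps acetyl-CoA carboxylase to polymerise, rose by 1.67 ± 0.19 and 1.28 ± 0.08. Acly and Slc25a1, which supply cytosolic acetyl-CoA from citrate, rose by 0.69 ± 0.06 and 0.93 ± 0.11 with 20 samples and by 0.69 ± 0.05 and 0.70 ± 0.04 with 16, and Acss2, which makes acetyl-CoA from acetate, by 0.68 ± 0.09 and 0.68 ± 0.08. Acaca, acetyl-CoA carboxylase itself, differed with the Vehicle samples used. It had 6.44, 7.52, 15.6, 13.4 and 6.93 FPKM in Vehicle and 13.8 to 14.8 in GW3965, so that Vehicle 3 reached past the GW3965 samples. It was not called with 20 samples, at 0.57 ± 0.19 (adjusted p = 0.076), and rose with 16, at 1.00 ± 0.04 (adjusted p = 2.7e-10). Elovl6 and Me1 followed the same pattern, at 0.48 ± 0.16 and 0.29 ± 0.09 with 20 samples and 0.83 ± 0.06 and 0.48 ± 0.06 with 16.

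Later steps of lipid handling changed in single genes. Acsl3, which activates fatty acids at lipid droplets, had 4.71, 5.95, 7.62, 6.64 and 5.19 FPKM in Vehicle and 16.5 to 18.2 in GW3965, a difference of 1.37 ± 0.09 and 1.598 ± 0.06. Acsl4, which prefers arachidonate, rose by 0.54 ± 0.13 and 0.84 ± 0.06. Pcyt2, of phosphatidylethanolamine synthesis, rose by 1.25 ± 0.18 and 0.78 ± 0.07, and Lpin1, a phosphatidate phosphatase, by 0.32 ± 0.06 and 0.42 ± 0.07. Plin2, a coat protein of lipid droplets, had 17.0 to 23.3 FPKM in Vehicle and 28.9 to 32.0 in GW3965 and was the 1 of 11 tested droplet genes called. Of 18 tested PPAR targets and fatty acid oxidation genes, 4 rose in each fit, 3 of them in both. These include Angptl4, an inhibitor of lipoprotein lipase, by 1.39 ± 0.28 and 0.70 ± 0.07, and Fabp5, a fatty acid carrier, by 1.28 ± 0.16 and 0.88 ± 0.05. Outside the lists, Crabp2, a carrier of retinoic acid, rose by 1.46 ± 0.24 and 1.00 ± 0.13, and Tmem97, a sterol-responsive membrane protein chosen after its values were seen, by 0.53 ± 0.15 and 0.50 ± 0.09.

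**Figure D3:**
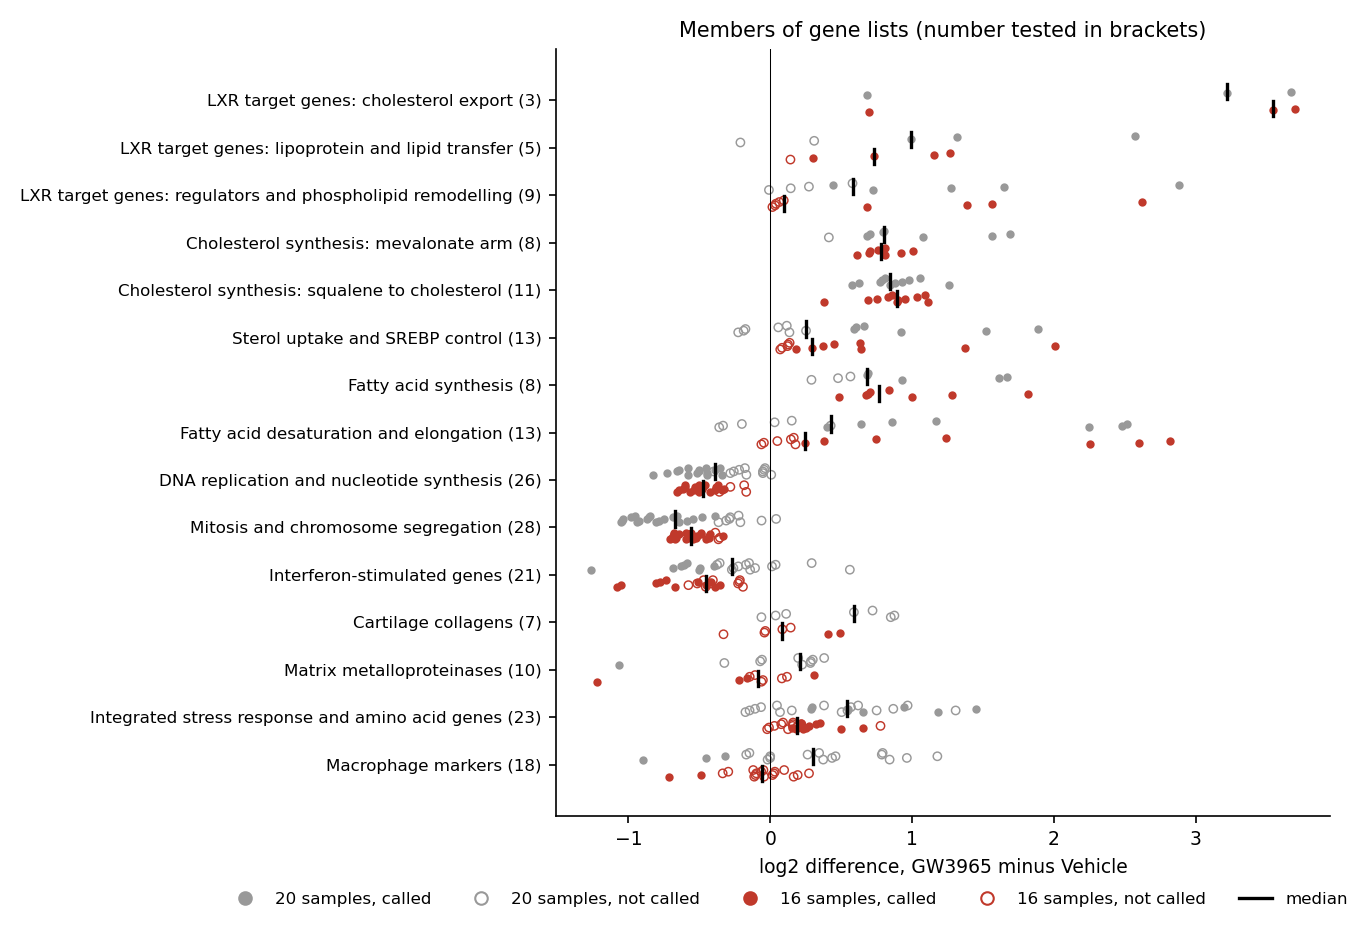
Log2 difference of GW3965 and Vehicle for every tested member of 15 gene lists, from the fit of 20 samples (grey) and of 16 (red); filled points were called and black bars are list medians. The medians of the LXR, cholesterol and fatty acid lists lie to the right of 0 and those of the DNA replication, mitosis and interferon lists to the left, and the medians of the collagens and macrophage markers move with the Vehicle samples used.

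The largest group of genes that fell was that of the cell cycle. Of 26 tested DNA replication genes, 15 fell with 20 samples and 22 with 16, and of 28 mitosis genes 20 and 25 fell, with 0 higher in either list. The medians were -0.39 and -0.48 for replication and -0.67 and -0.56 for mitosis. Top2a, the topoisomerase that untangles chromosomes (chromosome 11, 98992943 to 99024189), had 16.1, 19.8, 28.5, 32.1 and 17.1 FPKM in Vehicle and 8.77, 9.28, 10.4, 10.5 and 11.3 in GW3965. The groups did not overlap, and Vehicle 3 and 4 were the highest. The difference was -1.06 ± 0.15 with 20 samples and -0.67 ± 0.09 with 16 (adjusted p = 2.6e-04 and 2.5e-04). Mki67, the proliferation antigen, had 15.6, 14.5, 43.0, 42.9 and 18.4 FPKM in Vehicle and 10.0 to 12.2 in GW3965, so that the size of its fall, -1.05 ± 0.27 or -0.57 ± 0.10, depended on Vehicle 3 and 4 while its direction did not. Mcm6 and Mcm5, of the helicase that opens replication origins, varied less. Mcm6 had 25.2, 29.8, 34.3, 30.4 and 26.9 FPKM in Vehicle and 17.1, 17.1, 19.4, 18.8 and 18.1 in GW3965, a difference of -0.66 ± 0.07 and -0.50 ± 0.05, and Mcm5 fell by 0.58 ± 0.08 and 0.66 ± 0.09 on the log2 scale. Kif11, a spindle motor, fell by 0.85 ± 0.08 and 0.67 ± 0.09, and Anln, a scaffold of the cleavage furrow, by 0.94 ± 0.11 and 0.68 ± 0.10.

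Of 20 tested cyclins, E2F factors and inhibitors, 2 rose and 7 fell with 20 samples and 3 rose and 10 fell with 16. Ccna2 and Ccne2, cyclins of S phase entry and progress, fell by 0.80 ± 0.11 and 0.92 ± 0.17 on the log2 scale with 20 samples and by 0.66 ± 0.14 and 0.54 ± 0.10 with 16. E2f7 and E2f8, E2F factors that are themselves E2F targets, Foxm1, the activator of mitotic genes, and Rbl1, the p107 pocket protein, fell in both fits, with differences of -0.35 to -0.51 with 20 samples and -0.43 to -0.55 with 16 for E2f7, E2f8, Foxm1 and Rbl1. Cdkn2b, the gene of the CDK4 inhibitor p15, had 35.0, 38.1, 21.1, 20.2 and 30.8 FPKM in Vehicle and 60.4, 66.8, 62.6, 66.1 and 60.5 in GW3965, a rise of 1.14 ± 0.16 and 0.92 ± 0.05. Cdkn2a, its neighbour, had a difference of 0.82 ± 0.28 (adjusted p = 0.077) with 20 samples and rose by 0.44 ± 0.09 with 16. Cdkn1a, the gene of p21, rose by 0.49 ± 0.10 and 0.24 ± 0.06, and Cdkn1c, the gene of p57, fell by 0.73 ± 0.20 and 0.39 ± 0.10. Of 15 tested p53 targets, a list that holds Cdkn1a, 4 rose with 20 samples and 7 with 16.

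The letters TTTGAA, the core of the cell cycle homology region bound in many mitotic promoters, were in 59 of the 179 promoters of genes that fell in both fits (33.0%), in 9 of 26 of the replication and mitosis genes that fell, and in 11.6% of all promoters, counting both strands. Mki67 and Ncapg, a condensin subunit, are shown as examples with 1 match in capitals, on the strand of the gene, at chr7:135716463-135716522 (minus strand) and chr5:45669865-45669924 (plus strand).
Mki67: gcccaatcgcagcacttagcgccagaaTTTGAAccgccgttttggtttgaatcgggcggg
Ncapg: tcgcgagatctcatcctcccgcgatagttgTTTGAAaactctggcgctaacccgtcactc

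Interferon-stimulated genes were lower, 8 of 21 with 20 samples and 11 with 16, with 0 higher and medians of -0.27 and -0.45. The 2 fits did not call the same members, and 5 were called in both: Ifit1, Ifi44, Oasl2, Ifih1 and Ddx58, which bind or sense viral RNA or are induced with those that do. Ifit1 had 11.1, 11.8, 13.3, 11.6 and 8.46 FPKM in Vehicle and 5.37, 3.12, 5.68, 2.55 and 4.35 in GW3965. The groups did not overlap, and the difference was -1.26 ± 0.21 and -1.08 ± 0.22 (adjusted p = 9.2e-04 and 0.0054). Ifih1, the RNA sensor MDA5, had 2.46, 2.92, 4.88, 4.63 and 2.43 FPKM in Vehicle and 1.47 to 2.01 in GW3965. Isg15, a ubiquitin-like protein, had 22.0, 22.1, 3.19, 2.87 and 13.1 FPKM in Vehicle and 4.92 to 11.6 in GW3965, so that the groups overlapped, and it was called with 16 samples only, at -1.05 ± 0.24. Irf7, which amplifies the response, was likewise called with 16 only, at -0.81 ± 0.21. Slfn9, outside the list and from a family of close copies, fell by 1.24 ± 0.23 and 0.78 ± 0.08, and Cxcl10, an interferon-induced chemokine, by 0.77 ± 0.21 and 0.85 ± 0.24, with values of 0.680 to 2.67 FPKM in Vehicle and 0.350 to 0.755 in GW3965.

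The letters GAAANNGAA, the core of the interferon-stimulated response element, were in 4 of the 5 promoters of the list members that fell in both fits, in 13.4% of all promoters of genes that fell in both, and in 7.07% of all promoters, counting both strands. Ifit1 and Ifih1 are shown with 1 match each in capitals, which reads as its complement, on the strand of the gene, at chr19:34640779-34640838 (plus strand) and chr2:62646334-62646393 (minus strand).
Ifit1: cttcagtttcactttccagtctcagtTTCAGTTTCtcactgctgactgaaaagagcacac
Ifih1: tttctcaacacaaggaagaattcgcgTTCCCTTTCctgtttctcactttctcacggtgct

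Of 18 tested macrophage markers, 3 fell and 0 rose with 20 samples and 2 fell with 16, where 2.97% and 3.79% of all genes tested fell. The list median was 0.30 and -0.06. Mrc1, the mannose receptor of resident-type macrophages, had 19.2, 21.1, 29.0, 32.1 and 24.7 FPKM in Vehicle and 11.3, 12.6, 14.2, 12.8 and 13.8 in GW3965, a fall of 0.89 ± 0.13 and 0.72 ± 0.14 on the log2 scale. Siglec1, a sialic acid receptor that is also induced by interferon, fell by 0.45 ± 0.12 and 0.49 ± 0.14, and Adgre1, the gene of F4/80, by 0.32 ± 0.09 with 20 samples only. Outside the list and chosen after their values were seen, Fcrls, Cx3cr1 and Ms4a7, genes known from tissue macrophages, fell in both fits, with differences of -0.47 ± 0.13, -0.76 ± 0.17 and -0.66 ± 0.11 with 20 samples and -0.72 ± 0.14, -0.65 ± 0.11 and -0.69 ± 0.12 with 16 for Fcrls, Cx3cr1 and Ms4a7. Csf1r and Cd68, other macrophage markers, did not pass the test in either fit: Csf1r had 57.2 FPKM ± 4.198 in Vehicle and 57.2 ± 3.32 in GW3965, and Cd68 74.5 in Vehicle 1 and 5 and 72.6 ± 8.56 in GW3965. Lyz2 had a difference of 0.96 ± 0.34 with 20 samples (adjusted p = 0.083) and 0.16 ± 0.11 with 16. C1qa, a complement gene of macrophages, had one of 1.18 ± 0.40 (adjusted p = 0.076) and 0.02 ± 0.13, and neither gene was called in either fit. Irf8, a myeloid transcription factor also chosen after its values were seen, rose by 0.77 ± 0.12 and 0.46 ± 0.10, and Cfp, the complement factor properdin, chosen in the same way, by 1.13 ± 0.18 and 0.64 ± 0.13. Which cells carried the changes in LXR and interferon genes was not tested.

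Among cartilage collagens and matrix proteins, 0 genes were called in both fits. Of 7 collagens, 0 were called with 20 samples, and Col2a1 and Col11a2 rose with 16, by 0.49 ± 0.09 and 0.40 ± 0.08, where the 20-sample differences were 0.72 ± 0.23 and 0.88 ± 0.32 (adjusted p = 0.065 and 0.092). Both collagens were high in Vehicle 2, where Col11a2 had 113 FPKM, and low in Vehicle 3 and 4, at 20.6 and 25.1. Acan, which encodes the core protein of aggrecan, did not pass the test in either fit. Of 16 tested cartilage matrix proteins, 0 rose and 1 fell with 20 samples, Epyc, a small proteoglycan of growth cartilage. With 16 samples 2 fell, Matn1 and Cilp2, by 0.55 ± 0.14 and 0.50 ± 0.09. The list median was -0.15 with 20 samples and -0.27 with 16, where 2 of the 16 differences were above 0. Against 25HC the median was -0.29, and 0 members were called with 20 samples. With 16 samples 9 were lower than in 25HC and 0 higher, beside 6.82% and 6.30% of all genes tested. Of 9 small leucine-rich proteoglycans, Aspn fell in both fits, with values of 19.8 to 53.7 FPKM in Vehicle and 16.8 to 21.7 in GW3965. Fmod was called higher with 20 samples, at 0.59 ± 0.17, and not with 16, at 0.06 ± 0.07.

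Few genes that degrade the matrix were called in both fits. Mmp3, stromelysin, had 24.5, 10.8, 15.0, 15.6 and 10.9 FPKM in Vehicle and 7.55, 7.89, 5.43, 5.82 and 6.02 in GW3965, and every GW3965 sample was also under the 10 samples of 25HC and 25HC3S. That did not hold for Mrc1 and Ifit1, with means of 6.40 and 5.74 FPKM in 25HC3S and 12.9 and 4.21 in GW3965. Mmp3 fell by 1.07 ± 0.19 and 1.22 ± 0.26 on the log2 scale (adjusted p = 0.0021 and 0.0071). Mmp3 was the only 1 of 10 tested matrix metalloproteinases called in both fits, beside 246 higher and 231 lower of all 12752 genes tested. With 16 samples 3 of the 10 fell, Mmp3, Mmp11 and Mmp14, and 1 rose, Mmp28, where 3.79% and 3.98% of all genes fell and rose. Of 16 tested aggrecanases and other matrix proteases, 3 rose with 20 samples and 4 with 16, and 0 fell. Only 1 of these, Adamts2, rose in both fits. Mmp13, the main collagenase of cartilage, had 315 FPKM ± 20.2 in Vehicle and 301 ± 30.3 in GW3965, and its difference, -0.07 ± 0.08 and -0.11 ± 0.09, did not pass. Adamts5, the aggrecanase, had 11.3, 12.0, 21.6, 20.1 and 11.2 FPKM in Vehicle and 12.9 to 15.0 in GW3965, and was called higher with 16 samples, at 0.31 ± 0.08, where the 20-sample difference was -0.05 ± 0.17. Timp3, an inhibitor of both protease families, had 423, 411, 474, 475 and 407 FPKM in Vehicle and 548, 549, 553, 556 and 529 in GW3965, a rise of 0.32 ± 0.06 and 0.40 ± 0.04. Ank, which exports pyrophosphate and restrains mineralisation, fell by 0.48 ± 0.11 and 0.28 ± 0.04, and Mgp, a mineralisation inhibitor, had a difference of 0.11 ± 0.23 with 20 samples and fell by 0.43 ± 0.05 with 16.

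Of 18 tested cytokines, chemokines and inflammatory enzymes, 1 rose and 2 fell with 20 samples and 1 and 4 with 16. Of all genes tested, 3.49% rose and 2.97% fell with 20 samples and 3.98% and 3.79% with 16. Csf1, the macrophage growth factor, rose from 186 FPKM ± 42.5 to 257 ± 9.24, a difference of 0.50 ± 0.12 and 0.20 ± 0.05, and Vcam1, an adhesion receptor, fell by 0.51 ± 0.11 and 0.34 ± 0.08. Outside the lists, Steap3 and Mt2 are named for the size of their change, and Slc40a1 and Mt1 were chosen after their values were seen. Slc40a1, the iron exporter ferroportin, had 2.56, 3.23, 2.64, 3.27 and 2.79 FPKM in Vehicle and 1.44, 1.26, 1.24, 1.58 and 1.40 in GW3965, and Steap3, an endosomal iron reductase, had 54.9, 52.6, 49.6, 44.9 and 50.6 in Vehicle and 33.0, 32.4, 35.4, 33.9 and 31.2 in GW3965. Neither pair of groups overlapped, no Vehicle sample stood apart, and the differences were -0.71 ± 0.07 and -0.62 ± 0.08 for Slc40a1 and -0.59 ± 0.06 and -0.65 ± 0.05 for Steap3. The metallothioneins Mt1 and Mt2, which bind zinc and copper, rose by 0.97 ± 0.19 and 1.32 ± 0.24 with 20 samples and by 0.47 ± 0.08 and 0.60 ± 0.14 with 16. Of 19 tested NRF2 targets, genes of the oxidative stress response, 5 rose in each fit and 3 in both, among them Hmox1, haem oxygenase, by 0.78 ± 0.18 and 0.32 ± 0.05.

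Of 23 tested genes of the integrated stress response, 7 rose with 20 samples and 10 with 16, with medians of 0.54 and 0.19. Atf4, its main transcription factor, rose by 0.65 ± 0.15 and 0.32 ± 0.04, Atf3 by 0.94 ± 0.19 and 0.66 ± 0.07, and Nupr1 by 1.18 ± 0.35 and 0.35 ± 0.07. Gdf15, a stress cytokine, had 5.44, 2.73, 0, 1.62 and 6.02 FPKM in Vehicle and 7.53 to 9.80 in GW3965, a rise of 1.56 ± 0.37 and 0.57 ± 0.09, and was listed at 0 in Vehicle 3. In Vehicle 3 and 4 the list median lay at -0.97 and -0.67 relative to the mean of Vehicle 1 and 5. Of 20 endoplasmic reticulum chaperones and unfolded protein response genes, 0 were called with 20 samples and 1 with 16. Lysosomal genes rose in 5 and 4 of 23, among them Ctsd, a protease, by 0.97 ± 0.18 and 0.41 ± 0.05, and Sqstm1, an autophagy receptor, by 0.42 ± 0.07 and 0.34 ± 0.04. Genes of low level also crossed 1 FPKM: 5 were under it in all Vehicle samples and at or over it in all GW3965 samples, and 10 the reverse. Ighm, an immunoglobulin heavy chain gene, was among the former, at 0 to 0.711 FPKM in Vehicle and 1.40 to 2.53 in GW3965, and Aldh3a1, an aldehyde dehydrogenase, among the latter, at 1.22 to 1.43 and 0.409 to 0.667. Car3, a carbonic anhydrase of fat and muscle and 1 of 8 tested adipocyte markers, had 8.01, 9.18, 10.0, 19.0 and 9.04 FPKM in Vehicle and 2.48 to 3.93 in GW3965. It was as low in 25HC3S, at 2.27 to 3.38 FPKM.

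**Figure D4:**
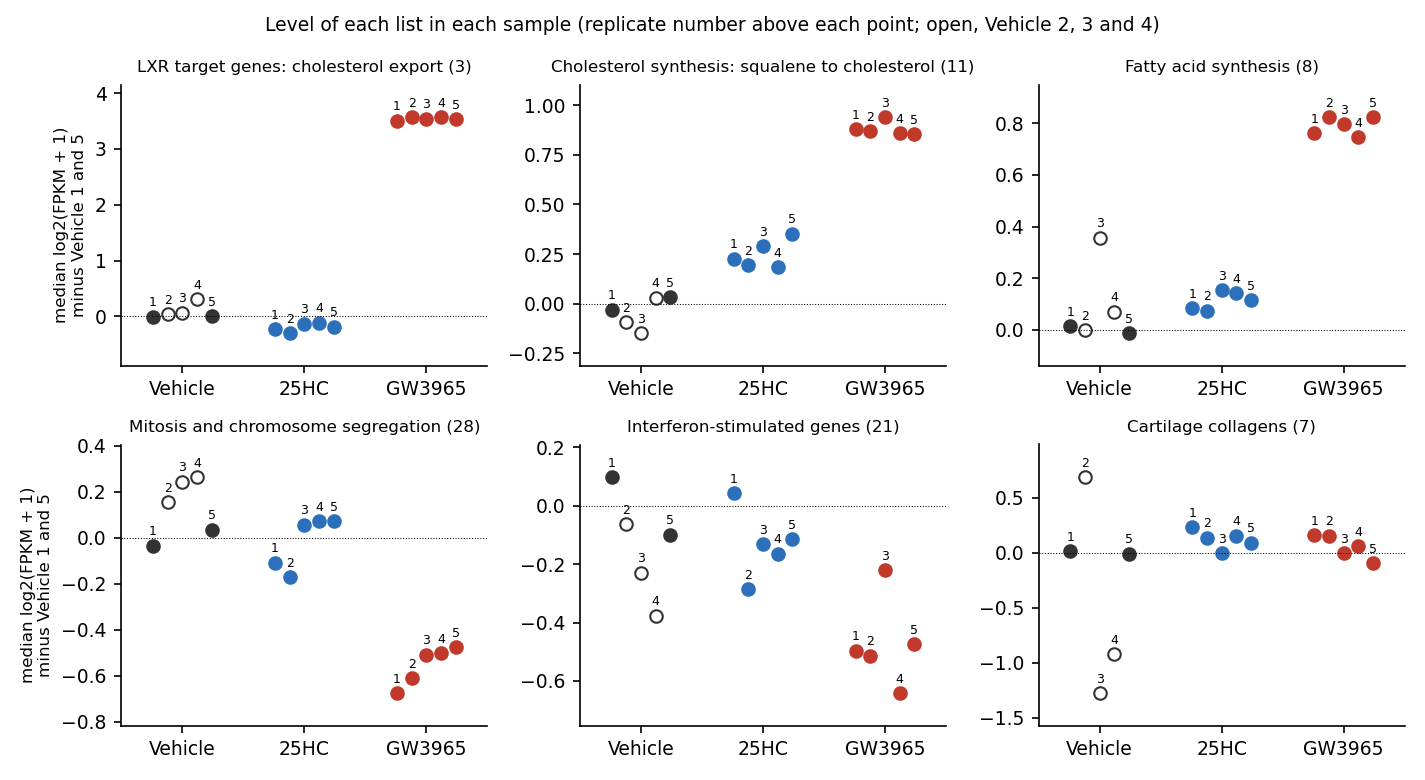
Median over the members of 6 lists of log2(FPKM + 1) minus the mean of Vehicle 1 and 5, in each Vehicle, 25HC and GW3965 sample (replicate numbers above points; open symbols are Vehicle 2, 3 and 4). GW3965 samples lie at 3.51 to 3.57 for cholesterol export, 0.86 to 0.94 for squalene to cholesterol and -0.68 to -0.48 for mitosis, and the collagen list spans -1.28 to 0.69 within Vehicle alone.

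The 5 samples of 25HC, an oxysterol that is a natural LXR ligand, gave a comparison of GW3965 that does not rest on the 3 Vehicle samples for its level, though they enter the shared spread of the 20-sample fit. GW3965 was higher for 108 genes and lower for 114, 0.847% and 0.894% of those tested, and with 16 samples, an alternative added after the data were seen, higher for 804 and lower for 870, 6.30% and 6.82%. Of the 246 and 231 genes called against Vehicle in both fits, 85 and 96 were called in the same direction against 25HC with 20 samples, and 229 and 215 with 16. The same 5 GW3965 samples enter both comparisons, so this overlap is partly built in. The 2 treatments differed in dose, 2 µM and 20 µM, so these are differences between the samples as treated. Abca1 had 5.96 FPKM ± 0.482 in 25HC, under the 5 Vehicle samples, and differed by 4.01 ± 0.13 from GW3965. Abcg1 had 1.46 ± 0.127 in 25HC and Srebf1 26.5 ± 0.881, near their Vehicle levels. Cholesterol synthesis genes were higher in GW3965 than in 25HC for 3 of 8 and 10 of 11 members with 20 samples and for all 8 and all 11 with 16. In the 25HC samples the medians of these 2 lists were themselves above the mean of Vehicle 1 and 5, by 0.18 to 0.42 and 0.18 to 0.35. In GW3965 they were above it by 0.74 to 0.86 and 0.86 to 0.94. The replication and mitosis lists were lower in GW3965 for 14 of 26 and 11 of 28, and with 16 samples for 24 and 28, while interferon-stimulated genes were lower for 2 and 13 of 21. The difference from 25HC was -0.70 ± 0.06 for Steap3 and -0.78 ± 0.19 for Mmp3 (adjusted p = 0.041).

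Among genes that make and sense oxysterols, 0 were called in both fits. Of 8 tested, 1 rose and 1 fell with 20 samples, Nr1h3 and Cyp7b1, neither called with 16, and 1 fell with 16. That gene was Ch25h, which makes 25HC, with 11.4, 4.68, 4.36, 3.12 and 9.23 FPKM in Vehicle and 4.79, 5.68, 4.35, 5.59 and 5.64 in GW3965. Vehicle 1 and 5 were higher than every GW3965 sample and Vehicle 2, 3 and 4 were within or under their range, so its difference was -0.16 ± 0.24 with 20 samples and -0.86 ± 0.13 with 16 (adjusted p = 0.63 and 4.7e-04). Cyp7b1, which hydroxylates oxysterols, had 1.29 to 4.203 FPKM in Vehicle and 0.624 to 1.35 in GW3965.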

How the data were processed

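RNA was extracted with Trizol and made into libraries with a fast RNA-seq kit, per the labels' protocols, and CASAVA 1.8 and HISAT2 2.0.5 are named in the submitters' processing notes. The authors deposited 1 table of FPKM per gene and sample, with gene lengths. FPKM times gene length came out as whole multiples of 1 step per sample for 100% of values (tolerance 0.02), and these multiples were taken as fragments to describe depth only. For the counter, its strand setting and the build, the entry is: not given in the sources used here. GENCODE M21 holds 99.77% of the table's gene identifiers, and 98.33% of those had the same coordinates, so the coordinates are of the GRCm38 type. Deposited FPKM were taken as log2(FPKM + 1), which understates changes of low genes. Genes with 1 FPKM or more in at least 5 of 20 samples were tested with limma 3.58.1 in R 4.3.3. The model had a mean per group and a trend of the spread with level, and the test was two-sided. The test was also run on simulated data, with no result given here. That run is not evidence on error rates in these samples, because Vehicle varied more. The fit without low-complexity samples kept the same genes. Replicate numbers were checked for pairing, without effect on the design.

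The members and lists were chosen with earlier results of these data known. Genes are named if they are in a list, among the 25 largest differences in each direction called in both fits, the 10 largest called in only 1 fit, the 10 largest gains and losses of mean FPKM, or genes that crossed 1 FPKM; others are marked in the text. Alternatives were another pseudocount and filter, equal medians, no trend, sample quality weights, fewer groups or samples, a replicate block and leaving out each sample. Some results are not reported here.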

Additional observations from a re-analysis of the deposited data

Results flagged for a closer look

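In 258 sets of 5 values, each a named gene in Vehicle or GW3965, the highest or lowest sample was compared with the rest. In 7 sets the gap of that sample to the nearest one, divided by the range, passed 0.71, where chance alone gives about 1 in 20. The ratio looks at a single extreme sample. Samples that deviate together, as Vehicle 3 and 4 did for Apoe and Mki67, are not flagged by it, so the count does not measure how far Vehicle varied. In Vehicle, Lpcat3 was lowest in replicate 2 (ratio 0.758), at 9.15 FPKM against 14.4 to 16.1, as was Cd68 (ratio 0.816), at 16.2 against 69.4 to 81.4. Insig1 was highest in Vehicle 3 (ratio 0.799), at 20.5 against 14.3 to 15.6, and Car3 in Vehicle 4 (ratio 0.816), at 19.0 against 8.01 to 10.0. In GW3965, Cdkn1a was lowest in replicate 5 (ratio 0.828), Vcam1 highest in replicate 5 (ratio 0.741) and Lyz2 lowest in replicate 4 (ratio 0.801).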

How the results depend on the processing

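Among 129 genes examined, 104 were called with 20 samples, 55 of them in the same direction under all 20 alternatives. With 16 samples 115 were called, 74 of them under every alternative, and 0 called genes reversed in either fit. The counts moved far more. Against Vehicle with 20 samples, 195 higher and 189 lower genes were called in 17 samples, without Vehicle 2, 3 and 4, 84 and 68 with only these 2 groups fitted, and 611 and 619 with sample quality weights. Leaving out 1 sample gave 233 to 1820 higher and 216 to 1427 lower, with 1820 and 1427 without Vehicle 1 and 1670 and 1328 without Vehicle 5. In the 16-sample fit it gave 241 to 485 and 193 to 459, with 262 and 193 without Vehicle 1 and 241 and 195 without Vehicle 5, each of which leaves 1 Vehicle sample, assumed to vary like the other groups. Only the 2 groups gave 365 higher and 310 lower there. Against 25HC, leaving out 1 sample gave 82 to 90 higher and 69 to 95 lower, only the 2 groups 678 and 749, weights 786 and 890, and 16 samples 804 and 870. The cause of these shifts was not tested.

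A replicate block gave 278 higher and 266 lower genes. Same-numbered Vehicle and GW3965 samples had correlated deviations of 0.12, -0.01, 0.02, -0.05 and -0.13. The Vehicle samples of low complexity lay far from the other Vehicle samples, so these correlations cannot decide whether the numbers pair the samples.

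Differences that changed sign belonged to genes not called in that fit. With 20 samples, leaving out 1 sample gave -0.349 to 0.0478 for Ch25h, -0.616 to 0.0286 for Isg15, -0.417 to 0.0441 for Irf7, -0.136 to 0.0878 for Adamts5, -0.0811 to 0.243 for Mgp, -0.0267 to 0.0402 for Csf1r and -0.0919 to 0.474 for Cd68. Cd68 was -0.0434 in 17 or 16 samples, Adamts5 0.28 with weights and 0.31 in 17 or 16, and Mgp -0.40 and -0.43. With 16 samples, leaving out 1 gave -0.000314 to 0.0564 for Nr1h2, -0.00026 to 0.123 for Sox9, -0.162 to 0.0654 for Csf1r, -0.142 to 0.0556 for Cd68 and -0.0348 to 0.0473 for C1qa. The 20-sample result rests on a Vehicle group whose samples 2, 3 and 4 are of low complexity, and the 16-sample result on 2 Vehicle samples.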
